A study of Mus musculus with 96 samples.

Results

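Insulin acts on a cell through a receptor that is itself an enzyme, and the 9 genes described here encode the chain from that receptor to the nucleus. They are Insr, Irs1, Irs2, Pik3ca, Pik3r1, Pdpk1, Akt1, Akt2 and Foxo1, chosen by name as the main line of insulin receptor signaling. All 9 have values in the deposited table, which lists 21990 genes, of which 20155 have values. Bound insulin makes the receptor, the product of Insr, phosphorylate the adaptors encoded by Irs1 and Irs2. The adaptors recruit the lipid kinase PI3K, whose catalytic subunit comes from Pik3ca and whose regulatory subunit comes from Pik3r1, and its lipid product brings the kinases PDK1 (Pdpk1) and AKT (Akt1 and Akt2) to the membrane, where PDK1 activates AKT. AKT phosphorylates the transcription factor FOXO1 and so keeps it out of the nucleus, which in liver lowers glucose production and in beta cells touches cell mass and identity.

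The samples are islets and liver taken from 48 C57BL/6N males, bought at 4 weeks of age, wild-type and with no agent other than the diet. After 4, 8, 12, 16, 20 and 24 weeks of feeding, 4 mice were on chow (CD) and 4 on a high-fat diet (HFD). Each mouse gave 1 islet and 1 liver library, 96 in all, so each tissue holds 12 groups of 4. Every week is a separate set of mice, whose age and harvest go together and cannot be told apart. Islets were picked by hand, and the piece of liver was homogenized whole, so both are mixtures of cell types. Levels are in FPKM, a unit that divides by transcript length and by the library's mapped total, so that genes can be compared with each other. The number of reads behind each library is not in the table, so the depth is unknown.

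The tissue labels were checked against lists of marker genes. In islets, Ins2 had the highest mean of the 10 beta cell markers, 503888 FPKM, and the summed beta cell markers ran from 576919 to 994676 FPKM. In liver, Alb led the 9 hepatocyte markers with a mean of 31047 FPKM, and their sum ran from 36748 to 80229 FPKM. Acinar markers were present in the islet libraries, led by Amy2a5, with sums between 4495 and 161901 FPKM, the highest in mouse CD304 at week 12. The 10 most abundant genes took 68.4% to 80.3% of all FPKM in islets and 18.3% to 29.2% in liver, so the level of any islet gene is a share of what insulin and a few others leave. Beta cell markers in liver had a median sum of 121 FPKM, but 3775 FPKM in CD306 at week 12 and 2621 FPKM in CD407 at week 16. No member's call in the average diet effect in liver changed when the liver library of CD306 or that of CD407 was left out.

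Several libraries stood apart from their groups. The balance of long against short transcripts of a library is the median log2 level of genes with the longest transcripts minus that of genes with the shortest. Each gene was first taken against its mean over the libraries of the tissue. In liver at week 4 it was -0.38 in CD103 and -0.45 in CD104, against -0.10 in CD101 and -0.07 in CD106. The same 4 chow livers had lower median correlations with each other, 0.970 to 0.972, than the median of all liver libraries, 0.984. Without these libraries the liver differences of week 4 turned for Insr (0.16 to -0.18), Irs1 (0.07 to -0.25), Pik3ca (0.22 to -0.05), Pdpk1 (0.07 to -0.02) and Akt1 (-0.03 to 0.26), none of them called either way, and other results that rest on CD103 and CD104 are given with and without them. The islet libraries of week 12 had the lowest balance, with means of -0.29 in CD and -0.44 in HFD mice, so averages were also computed without week 12. Islets of HFD mice had a lower balance than islets of CD mice in 6 of 6 weeks, a mean difference of -0.11 (permutation p = 5e-05, two-sided), and in liver the difference was -0.00 (permutation p = 0.914).

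In chow-fed mice the order of levels differed between the tissues. In islets it ran from Akt1 (58.8 ± 7.91 FPKM, SD, n = 24) over Akt2 (35.2 ± 4.32), Pdpk1 (16.1 ± 1.88), Foxo1 (15.3 ± 1.63), Pik3r1 (9.51 ± 1.66), Pik3ca (8.04 ± 1.63), Insr (7.96 ± 1.16) and Irs2 (7.35 ± 2.60) to Irs1 (1.73 ± 0.451). The means of Pdpk1 and Foxo1, and of neighbours from Pik3r1 down to Irs2, lay within these SDs, which span mice and weeks. Genes were not tested against each other within libraries, where the order can be firmer. Pik3r1 lay above Pik3ca in every chow islet library, with group means of 7.88 and 5.335 FPKM at week 12. In liver it ran from Akt2 (38.8 ± 5.84) over Akt1 (23.6 ± 4.59), Insr (11.3 ± 2.02), Pik3r1 (8.53 ± 1.95), Foxo1 (8.07 ± 1.85), Pdpk1 (4.29 ± 0.560), Pik3ca (3.81 ± 0.678) and Irs1 (2.31 ± 0.635) to Irs2 (2.06 ± 1.02). Here the means of Pik3r1 and Foxo1, Pdpk1 and Pik3ca, and Irs1 and Irs2 lay within these SDs, again without a test within libraries. The chow mean of Pdpk1 was above that of Pik3ca in every week. The leading AKT gene was thus Akt1 in islets and Akt2 in liver, and the leading adaptor gene was Irs2 in islets, while the means of the adaptors were close in liver. The islet mean of Akt1 was above that of 96.2% of genes with values, and that of Irs1 above 46.4%.

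Which members differ between the tissues was tested over the 24 CD libraries of each, and all 9 passed at an adjusted p under 0.05, as did 95.4% of all genes tested, so that the share says nothing about the members. The size of the differences is the more telling value. Pdpk1 was 3.76 times as high in islets as in liver (log2 liver minus islets -1.69, adjusted p = 1.7e-36), and Irs2 was 3.57 times as high (-1.45, adjusted p = 8.8e-18). Akt1 had a log2 difference of -1.29, Pik3ca of -0.90 and Foxo1 of -0.87, also higher in islets, against a median of -0.66 over all genes tested. These 5 stayed higher in islets under both other scalings. Insr was 1.42 times as high in liver (0.45, adjusted p = 1.2e-11) and Irs1 1.33 times (0.27, adjusted p = 1.1e-04), but with the insulin genes left out of the islet total Insr gave 0.03 (adjusted p = 0.519) and Irs1 -0.04 (adjusted p = 0.577). That scaling moved the median of all genes by -0.38. Akt2 at 0.13 turned to -0.32 with insulin left out, and Pik3r1 at -0.16 turned to 0.27 with median ratio scaling, which moved the median of all genes by 0.36. With the length balance as a covariate Pik3r1 did not pass (-0.10, adjusted p = 0.064). In bulk tissue, fewer cells of a type and less RNA per cell cannot be told apart, here or in any comparison that follows.

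The diet comparison asks which steps of the insulin chain are expressed at another level in mice fed fat. Week by week, few members passed. Each week of each tissue was tested by limma over all expressed genes. In islets the members passing numbered 0, 1, 0, 0, 0 and 0 of 9 from the first week to the last, where the shares of all genes tested were 0%, 5.27%, 4.53%, 8.45%, 4.74% and 8.30%. The members at an unadjusted p under 0.05 numbered 0, 4, 0, 1, 2 and 1 of 9 in the same weeks, against 7.38%, 28.9%, 17.4%, 23.2%, 25.7% and 23.3% of all genes. In liver, 0 of 9 members passed in any of the 6 weeks, where the shares of all genes were 0.0506%, 7.49%, 10.6%, 7.43%, 2.47% and 0.837%, and 1, 3, 2, 0, 1 and 1 members had an unadjusted p under 0.05, against 12.9%, 22.6%, 30.3%, 22.6%, 15.3% and 15.6% of all genes. Over all weeks, 1 of 54 member and week pairs passed in islets, where 5.23% of gene and week pairs did, and 0 of 54 in liver, where 4.81% did. Groups of 4 did not overlap in 4 of the 54 pairs in islets and in 3 of the 54 in liver, where 13.0% and 12.3% of all gene and week pairs did not. Counts this small, 0 or 1 of 9, cannot be set apart from those shares.

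Averaged over the 6 weeks, 1 of 9 members passed in islets, against 38.6% of 12378 genes, and 3 of 9 in liver, against 42.6% of 10879. The median log2 difference of the members was -0.06 in islets, with -0.01 over all genes, and 0.10 in liver, with 0.08 over all genes. In liver, 3892 of the 4630 called genes were higher in HFD mice. The members named by these tests are Akt1 in islets, and Pik3r1, Akt1 and Akt2 in liver.

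**Figure D1:**
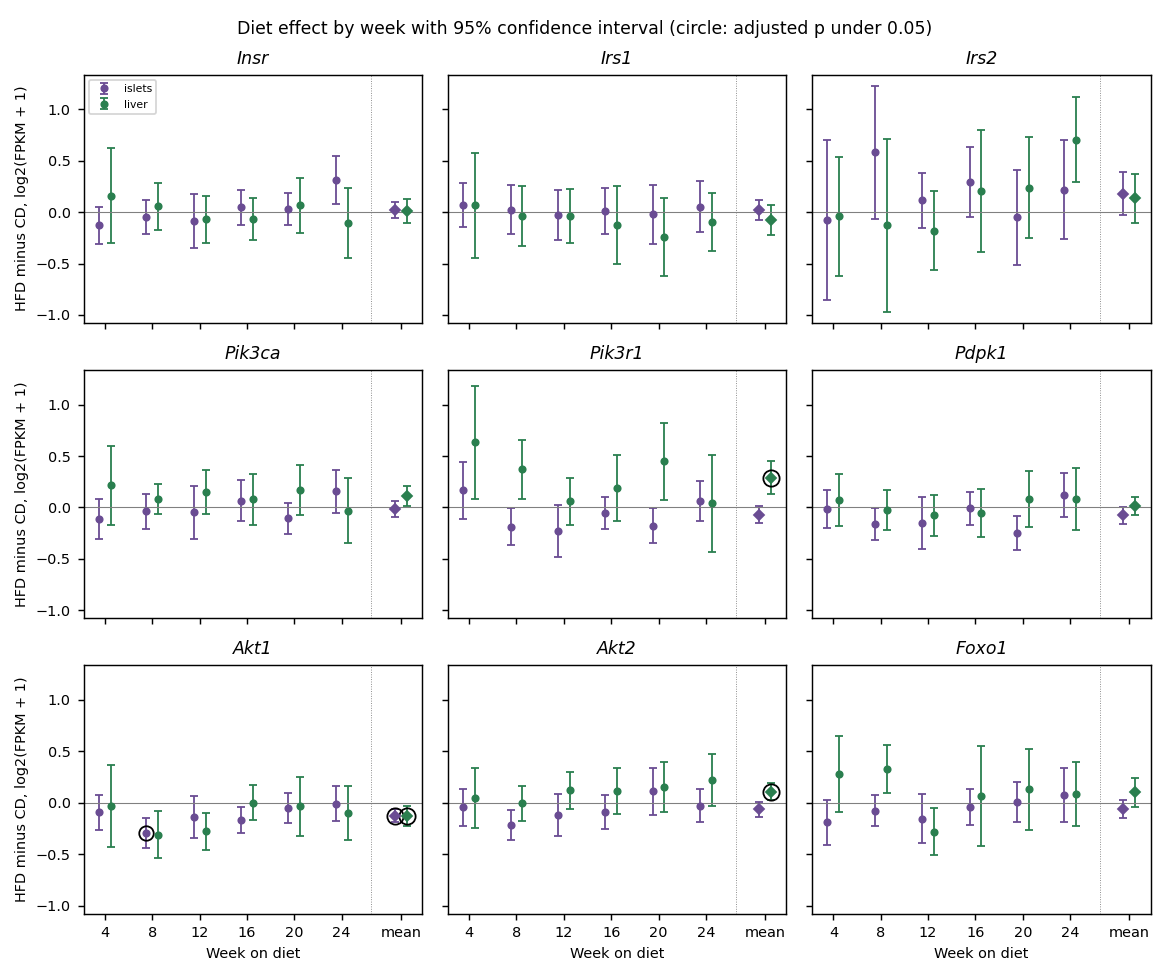
Difference between HFD and CD mice (log2 of FPKM + 1, y axis) by week on the diet (x axis) for each of the 9 genes, with islets in purple, liver in green, 95% confidence intervals, and the mean over the 6 weeks as a diamond; circles mark an adjusted p under 0.05. Circles mark Akt1 in islets at week 8, the mean of Akt1 in islets, and the means of Pik3r1, Akt1 and Akt2 in liver, though with insulin left out of the islet total both islet circles of Akt1 are lost.

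Insr encodes the receptor. Its group means lay between 6.18 and 10.7 FPKM in islets and between 8.99 and 13.6 FPKM in liver. The average diet effect was 0.02 in islets (adjusted p = 0.706) and 0.01 in liver (adjusted p = 0.939), the liver value being -0.07 with median ratio scaling. Week 24 of islets was the week with the widest gap: CD mice had 9.57, 7.22, 8.72 and 8.2 FPKM, and HFD mice had 9.43, 13.1, 11.3 and 9.22 FPKM. HFD mice held both of the values above 10 FPKM, yet 2 of them lay within the chow range, and the difference of 0.31 did not pass (adjusted p = 0.0944). It passed when all 12 islet groups were fitted together (adjusted p = 0.031), with insulin left out (0.32, adjusted p = 0.0495) and with the length balance as a covariate (0.39, adjusted p = 0.0141). With that covariate the average diet effect of Insr in islets was 0.14 (adjusted p = 0.00467), and with insulin left out it was 0.10 (adjusted p = 0.0221).

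Irs1 and Irs2 encode the adaptors that the receptor phosphorylates. Irs1 was the lowest member in islets, with group means between 1.25 and 2.23 FPKM there and between 1.71 and 2.67 FPKM in liver. Its average diet effect was 0.02 in islets (adjusted p = 0.782) and -0.08 in liver (adjusted p = 0.393). None of its 12 weekly tests passed, nor did any of the 12 of Irs2, though Irs2 in islets at week 16 (0.29) passed with insulin left out (0.43, adjusted p = 0.0436).

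Irs2 varied more between mice of a group, relative to its mean, than any other member in both tissues. Over all libraries it ran from 4.14 to 16.2 FPKM in islets and from 0.44 to 6.73 FPKM in liver. In liver the chow means were 2.44, 2.58, 1.15, 1.26, 2.62 and 2.32 FPKM from week 4 to week 24, so weeks 12 and 16 were lowest. At week 24 the chow livers had 2.64, 2.31, 2.65 and 1.69 FPKM of Irs2, and the HFD livers had 4.24, 6.73, 3.04 and 4.11 FPKM. All 4 HFD livers lay above all 4 chow livers, and the difference was 0.71, the largest of any member and week in liver, but it did not pass the correction over all genes (adjusted p = 0.117). In islets at week 8 CD mice had 10.0, 6.72, 5.65 and 4.91 FPKM of Irs2, and HFD mice had 10.97, 16.2, 7.11 and 9.03 FPKM. The groups overlapped, and the difference of 0.58 did not pass (adjusted p = 0.205). Averaged over weeks, the diet effect on Irs2 was 0.18 in islets (adjusted p = 0.17) and 0.13 in liver (adjusted p = 0.371), and with insulin left out of the islet total the islet value was 0.26 (adjusted p = 0.0328).

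Pik3ca encodes the catalytic subunit of PI3K. Its group means lay between 5.17 and 10.2 FPKM in islets, both extremes in HFD mice, and between 2.96 and 4.81 FPKM in liver. The average diet effect was -0.01 in islets (adjusted p = 0.818), and 0.07 there with insulin left out. With the length balance as a covariate it turned to 0.13 and passed (adjusted p = 0.00144). The islet difference of 0.16 at week 24 did not pass (adjusted p = 0.369), but did with that covariate (0.24, adjusted p = 0.0169). In liver the average was 0.11, higher in 5 of 6 weeks, and did not pass (adjusted p = 0.0632). That liver value is close to the threshold: it passed without the liver library of CD101, CD106, CD304, HFD112, HFD414, HFD518 or HFD617, with values from 0.12 to 0.13 and adjusted p from 0.0134 to 0.0458, and fell to 0.07 without both CD103 and CD104 (adjusted p = 0.244).

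Pik3r1 encodes the regulatory subunit that docks the catalytic one onto the adaptors, and in liver it had the largest average diet effect of the members. At week 4 the chow livers had 7.64, 3.99, 4.26 and 6.14 FPKM, and the HFD livers had 5.45, 11.3, 11.3 and 8.61 FPKM. By week 8 CD livers were at 9.62, 8.13, 7.59 and 10.3 FPKM and HFD livers at 11.9, 12.5, 13.7 and 9.33 FPKM. In both weeks 3 HFD livers lay above the highest chow liver and 1 lay within the chow range. At week 12 the chow livers had 10.1, 9.04, 8.73 and 9.1 FPKM, and the HFD livers 10.8, 9.44, 8 and 10.6 FPKM. Week 16 gave 9.46, 12.5, 7.44 and 9.66 FPKM for CD and 11.3, 10.7, 9.65 and 13.0 FPKM for HFD livers. These weeks overlap widely. At week 20 the chow livers had 8.78, 8.27, 7.57 and 7.63 FPKM, and the HFD livers 13, 12.1, 13.9 and 7.45 FPKM, 3 of them above every chow liver and 1, HFD518, below every one. Week 24 gave 7.95, 9.11, 11.4 and 10.3 FPKM for CD and 11.9, 12.3, 11.4 and 5.7 FPKM for HFD livers, and the low one is HFD617.

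Averaged over weeks, Pik3r1 rose in liver from 8.53 ± 1.95 to 10.6 ± 2.29 FPKM (mean and SD of 24 mice per diet), a log2 difference of 0.29 (adjusted p = 0.00311). The mean was higher in HFD mice in 6 of 6 weeks, though with median ratio scaling weeks 12 and 24 gave -0.05 and -0.04. No single week passed, with adjusted p of 0.33 at week 4, 0.124 at week 8 and 0.223 at week 20. Week 8 passed without HFD217 (0.47, adjusted p = 0.0319) and week 20 passed without HFD518 (0.63, adjusted p = 0.011). Without CD103 and CD104, week 4 gave 0.32 in place of 0.63, and the average gave 0.24 (adjusted p = 0.0145). The average passed in all 48 fits that left out 1 liver library, with values from 0.27 to 0.33, and in every other alternative run on it. In islets the average diet effect on Pik3r1 was -0.07 (adjusted p = 0.185), with 0.01 when insulin was left out.

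**Figure D2:**
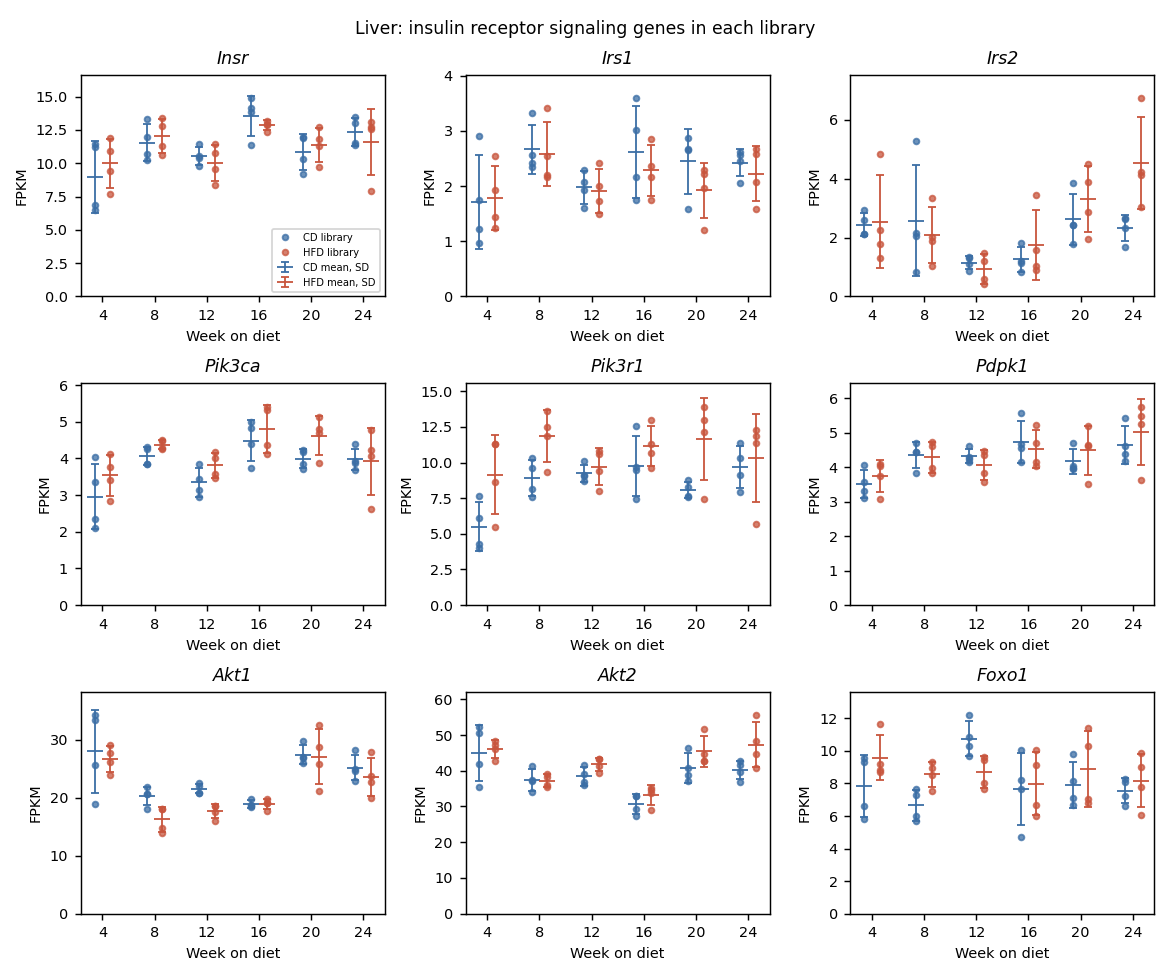
FPKM of the 9 genes in each liver library (y axis, linear and from 0) by week on the diet (x axis), with CD in blue and HFD in red, and bars for the mean and SD of 4 mice. In the Pik3r1 panel the HFD means run from 9.15 to 11.8 FPKM and the chow means from 5.51 to 9.78 FPKM, and the Irs2 panel shows the HFD livers of week 24 above the chow livers.

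Pdpk1 encodes PDK1, the kinase that activates AKT. Its group means lay between 13.0 and 18.6 FPKM in islets and between 3.51 and 5.03 FPKM in liver. At week 20 the chow islets had 18.4, 18.6, 19.2 and 18.0 FPKM, and the HFD islets had 16.6, 17.0, 13.5 and 14.8 FPKM. All 4 HFD islet samples lay below all 4 chow samples, but the difference of -0.25 did not pass (adjusted p = 0.0748). It passed without HFD511 (-0.28, adjusted p = 0.0314). At week 8 the groups did not overlap either, with chow islets between 16.3 and 17.2 FPKM and HFD islets between 13.3 and 16.2 FPKM (-0.16, adjusted p = 0.167). The average diet effect in islets was -0.08 (adjusted p = 0.127). It passed with median ratio scaling (-0.07, adjusted p = 0.0354) and without the islet library of CD304 (-0.09, adjusted p = 0.0399), but was 0.01 with insulin left out and 0.07 with the length balance as a covariate. In liver it was 0.01 (adjusted p = 0.816), and -0.06 with median ratio scaling.

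Akt1 encodes the more widely expressed of the AKT kinases. At week 8 the chow islets had 54.3, 56.8, 51.4 and 53.3 FPKM, and the HFD islets had 40.1, 42.8, 44.3 and 47.8 FPKM. The groups did not overlap, and Akt1 fell by 0.30 on the log2 scale (adjusted p = 0.0323), the one member and week that passed in either tissue. In the same week the median of all genes was -0.11 and 543 of the 613 called genes were lower in HFD mice. The call did not hold without the islet library of CD203, CD205, CD208, HFD211, HFD212 or HFD213 (adjusted p from 0.0675 to 0.0836, with values from -0.26 to -0.30), with median ratio scaling (-0.18, adjusted p = 0.151), which moved the median of all genes by 0.10, with insulin left out (-0.22, adjusted p = 0.0879), with the length balance as a covariate (-0.31, adjusted p = 0.128) or with no filter on low values (adjusted p = 0.0607). At week 16 the chow islets had 49.2, 49.6, 52.7 and 53.8 FPKM, and the HFD islets had 46.6, 45.4, 47.0 and 44.0 FPKM. These groups did not overlap either (-0.16, adjusted p = 0.111), and with median ratio scaling the difference of -0.17 passed (adjusted p = 0.0432).

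Averaged over weeks, Akt1 in islets went from 58.8 ± 7.91 to 54.0 ± 8.39 FPKM (mean and SD of 24 mice per diet), and it fell by 0.12 on the log2 scale (adjusted p = 0.00136). The mean was lower in 6 of 6 weeks, though week 12 turned to 0.07 with insulin left out. All 48 fits without 1 islet library kept the call, with values from -0.14 to -0.11. With the insulin genes left out of the islet total, the average was -0.04 (adjusted p = 0.273). That scaling moved the median of all genes by 0.19 at week 12 and by 0.13 at week 16. The summed beta cell markers, most of them insulin, were higher in HFD mice in the same weeks: CD had a mean of 607288 FPKM and HFD of 856777 FPKM at week 12, and at week 16 they were 643972 and 815721 FPKM. Their part in the difference beyond that scaling was not tested.

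In liver, Akt1 also had a lower mean in HFD mice. At week 12 the chow livers had 20.9, 22.0, 20.9 and 22.6 FPKM, and the HFD livers had 17.5, 18.7, 16.0 and 18.5 FPKM. The groups did not overlap, and the difference of -0.28 did not pass (adjusted p = 0.0556). It passed with median ratio scaling (-0.39, adjusted p = 0.016) and without the liver library of CD304 (-0.29, adjusted p = 0.0455). In week 8 chow livers had 20.7, 18.1, 21.8 and 20.6 FPKM, and the HFD livers had 14.0, 14.9, 18.0 and 18.1 FPKM, with 3 HFD livers below every chow liver (-0.31, adjusted p = 0.108). Averaged over weeks, Akt1 fell in liver by 0.12 on the log2 scale (adjusted p = 0.0364), from 23.6 ± 4.59 to 21.7 ± 5.04 FPKM (SD, n = 24 each), and was lower in 5 of 6 weeks. That call is close to the threshold. It did not hold without the liver library of CD103, CD104, CD207, CD507, CD601, HFD112, HFD211, HFD212, HFD316, HFD511 or HFD614, each left out alone, with values from -0.11 to -0.12 and adjusted p of up to 0.0658. It did not hold without both CD103 and CD104 (-0.08, adjusted p = 0.166) or without week 12 (-0.09, adjusted p = 0.211). The call held with median ratio scaling, where the median of all genes was 0.004 in place of 0.08.

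Akt2 encodes the AKT kinase best known for insulin's metabolic effects in liver. In liver it rose from 38.8 ± 5.84 to 41.8 ± 6.14 FPKM (mean and SD of 24 mice per diet), a log2 difference of 0.11 (adjusted p = 0.0246), where the median of all genes was 0.08. It was higher in 5 of 6 weeks. At week 24, the week with the widest gap, the chow livers had 36.9, 42.7, 41.5 and 39.7 FPKM, and the HFD livers had 44.7, 40.7, 48.2 and 55.5 FPKM. There 3 HFD livers lay above every chow liver (0.22, adjusted p = 0.395). All 48 fits without 1 liver library kept the average call, and without both CD103 and CD104 it was 0.14 (adjusted p = 0.00211). It was lost with median ratio scaling (0.02, adjusted p = 0.686) and without week 12 (0.11, adjusted p = 0.0733). In islets the average was -0.06 (adjusted p = 0.142), and 0.02 with insulin left out. The islet difference of -0.21 at week 8 did not pass (adjusted p = 0.08), but passed without HFD217 (-0.26, adjusted p = 0.0301).

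**Figure D3:**
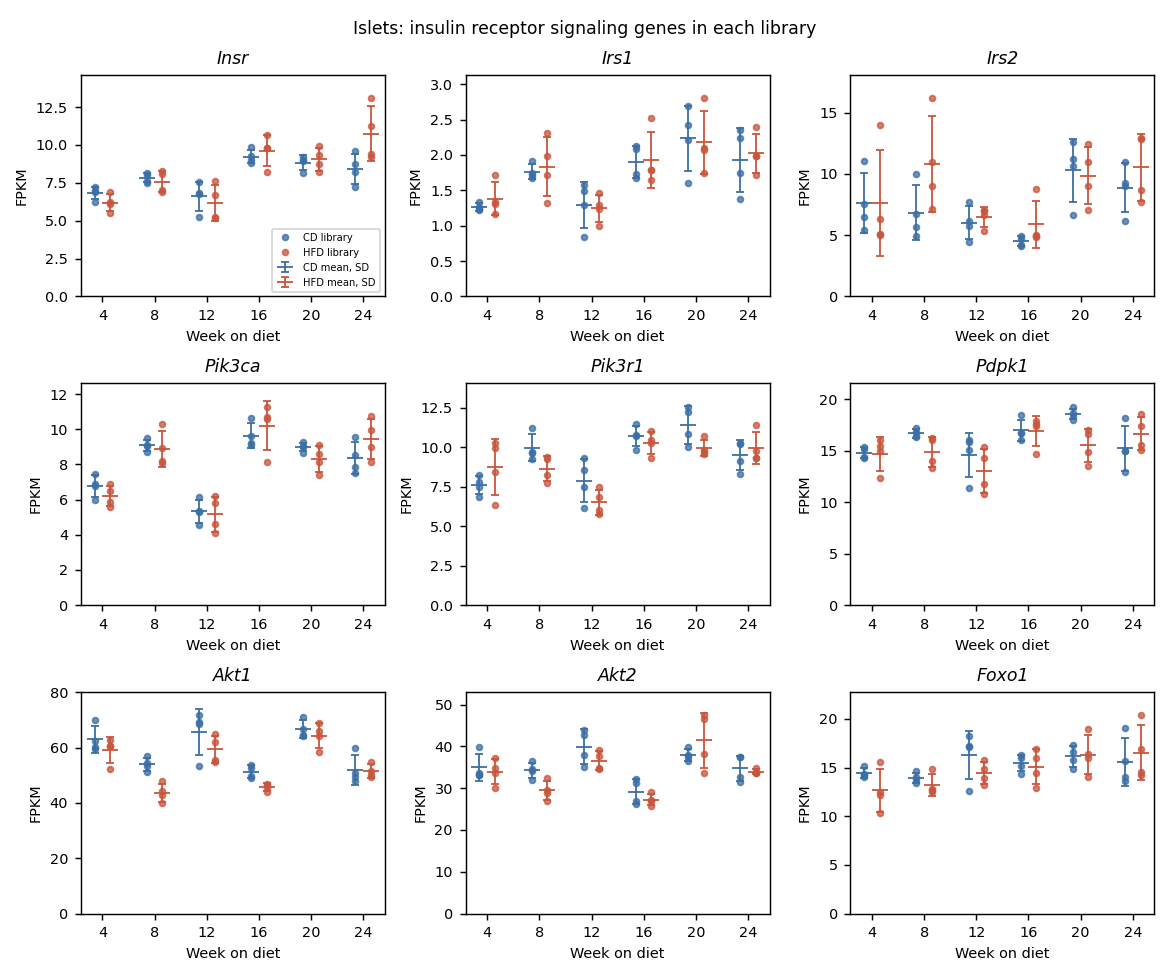
FPKM of the 9 genes in each islet library (y axis, linear and from 0) by week on the diet (x axis), with CD in blue and HFD in red, and bars for the mean and SD of 4 mice. In the Akt1 panel the HFD samples of weeks 8 and 16 lie below all chow samples, and the Irs1 panel has the lowest values, from 0.84 to 2.8 FPKM.

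Foxo1 encodes the transcription factor at the end of the chain. Its group means lay between 12.6 and 16.5 FPKM in islets and between 6.66 and 10.8 FPKM in liver. Liver showed opposite differences in neighbouring weeks. At week 8 the chow livers had 7.29, 5.98, 7.64 and 5.72 FPKM, and the HFD livers had 8.52, 9.31, 7.53 and 8.95 FPKM. At week 12 the chow livers had 9.67, 10.9, 12.2 and 10.3 FPKM, and the HFD livers had 9.63, 7.67, 8.04 and 9.46 FPKM. At week 8, 3 HFD livers lay above every chow liver (0.33, adjusted p = 0.0945), and at week 12 all 4 lay below every chow liver (-0.28, adjusted p = 0.101), so neither passed. The F test of whether the diet effect on Foxo1 in liver differs among weeks gave an adjusted p of 0.562. Averaged over weeks the effect was 0.10 in liver (adjusted p = 0.244) and -0.06 in islets (adjusted p = 0.264), with 0.02 in islets when insulin was left out.

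Whether the diet effect changes over the course was tested as weeks 4, 8 and 12 minus weeks 16, 20 and 24, and as any difference among weeks. By limma, 0 of 9 members passed the first test in either tissue, where 3.16% of genes passed in islets and 0.175% in liver, and 1 member in each tissue had an unadjusted p under 0.05, against 18.5% and 7.91% of genes. These were Insr in islets (-0.22, adjusted p = 0.134) and Irs2 in liver (-0.50, adjusted p = 0.592). The value of Insr passed without the islet library of CD304 (-0.25, adjusted p = 0.0428) and with the length balance as a covariate (-0.24, adjusted p = 0.0169). By limma's F test, 0 of 9 passed the second, where 4.25% of genes passed in islets and 1.46% in liver, and 1 member in islets and 0 in liver had an unadjusted p under 0.05, against 22.4% and 14.8% of genes.

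In chow-fed mice alone, the change with weeks on study was tested as a slope per 4 weeks. By limma, 0 of 9 members passed in islets, against 4.27% of genes, and 0 of 9 in liver, against 14.9%, while 3 and 4 had an unadjusted p under 0.05, against 26.0% and 32.4% of all genes. The closest were Pik3r1 in liver (0.10 per 4 weeks, adjusted p = 0.0506), which without CD103 and CD104 was 0.04 (adjusted p = 0.459), Irs1 in islets (0.08, adjusted p = 0.0537) and Insr in islets (0.06, adjusted p = 0.0641). All 3 lie close to the threshold. Pik3r1 in liver passed with a pseudocount of 0.1 (0.11, adjusted p = 0.0495), with a filter at 5 FPKM (adjusted p = 0.0453), with median ratio scaling (adjusted p = 0.0458) and without CD203, CD205, CD208, CD304, CD502, CD505, CD507 or CD601, each left out alone (0.10 to 0.11, adjusted p from 0.0303 to 0.049). Irs1 in islets passed with median ratio scaling (0.07, adjusted p = 0.0251), without week 12 (0.07, adjusted p = 0.0317), without trend and robust variances (adjusted p = 0.0498) and without CD205, CD207, CD208, CD304 or CD605 (0.08 to 0.10, adjusted p from 0.0239 to 0.0486). Insr in islets passed with median ratio scaling (0.05, adjusted p = 0.0305), without week 12 (0.06, adjusted p = 0.0277) and without CD304 or CD605 (0.06 and 0.07, adjusted p = 0.0323 and 0.0382).

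Whether a diet effect differs between the tissues needs a test of its own. It was run on all 96 libraries without a term for the mouse, though each mouse gave both tissues. In that test 2 of 9 members passed, against 40.8% of 9936 genes, and the median of the members was 0.09, as over all genes. With the mouse as a replicate block 2 members passed as well. The diet effect on Pik3r1 was larger in liver than in islets by 0.36 (adjusted p = 0.00103), from 0.29 in liver and -0.07 in islets. The diet effect on Akt2 was larger in liver by 0.17 (adjusted p = 0.00614), which did not pass with median ratio scaling (0.09, adjusted p = 0.141) or with insulin left out (0.09, adjusted p = 0.207). Pik3r1 passed in all alternatives run on this test, with 0.29 under median ratio scaling and 0.28 with insulin left out. Foxo1 at 0.16 (adjusted p = 0.107) passed without CD103 and CD104 (0.21, adjusted p = 0.0355). Pik3ca at 0.12 (adjusted p = 0.108) passed without the liver library of CD106 (0.14, adjusted p = 0.0456) or HFD617 (0.15, adjusted p = 0.038). The difference for Akt1 was -0.00 (adjusted p = 0.999), its effects being -0.12 in both tissues.

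Marker genes of cell types differed between the diets in both tissues, and their values stand beside the member results. In islets, the 6 alpha cell markers were all called, 5 of them lower, led by Gcg, and their summed level at week 24 had a mean of 10990 FPKM on chow against 1836 FPKM on the high-fat diet. All 4 delta cell markers and both pancreatic polypeptide cell markers were lower, as were 5 of 12 acinar markers, while 7 of 10 beta cell markers were called, 5 higher and 2 lower. In the other lists, the called markers in islets were 2 of 8 for macrophages, both higher, 2 of 5 for ducts, both lower, 4 of 6 for endothelium, 2 each way, 2 of 7 for stroma, 1 each way, 1 of 1 for T cells, lower, 2 of 5 for B cells, lower, and 4 of 7 for hepatocytes, 1 higher and 3 lower. In liver, 8 of 9 macrophage markers were higher, led by C1qa, with a median difference of 0.62, and so were 6 of 7 stromal markers, led by Dcn, with a median of 0.58. Summed macrophage markers in liver at week 20 had means of 186 FPKM on chow and 329 FPKM on the high-fat diet, and stromal ones 82.0 and 128 FPKM. Of 9 hepatocyte markers, 5 were lower, with a median of -0.21. The called markers in liver were otherwise 3 of 4 for beta cells, 2 of 4 for alpha cells, both lists lower, 1 of 3 for delta cells, 1 of 5 for ducts and 2 of 6 for endothelium, all higher, and 0 of 11 for acinar cells, 0 of 1 for pancreatic polypeptide cells and 0 of 1 for B cells, by limma. Of the adipocyte markers, Cfd was the one tested in liver and was higher by 2.26, Lep was at 0 in every liver library, and none of the 4 was tested in islets. T cell markers were too low to be tested in liver. The part of these cells in the member results was not tested.

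The transcript length balance moved with several members. Over the 48 libraries of a tissue, after group means were subtracted, 18 relations of a member's level with the balance were computed. In islets, Pik3ca followed it most closely, with r = 0.82 (permutation p = 1e-05, adjusted p = 6e-05) and rho = 0.82 (permutation p = 1e-05, adjusted p = 6e-05), and r = 0.82 without the 2 farthest libraries. Pdpk1 came next, with r = 0.79 and rho = 0.80 in islets, each with a permutation p of 1e-05 (adjusted p = 6e-05), and r = 0.80 without the 2 farthest. In liver, Pdpk1 had r = 0.81 and rho = 0.79 with the same p of 1e-05 (adjusted p = 6e-05), and r = 0.79 without the 2 farthest. Pik3r1, the member with the largest average diet effect in liver, followed the balance there too, with r = 0.70 (permutation p = 5.4e-04, adjusted p = 0.00139) and rho = 0.60 (permutation p = 7.4e-04, adjusted p = 0.00166), and r = 0.63 without the 2 farthest. Insr in liver had r = 0.69 (permutation p = 8.3e-04, adjusted p = 0.00149) and rho = 0.55 (permutation p = 0.0018, adjusted p = 0.00346), and r = 0.60 without the 2 farthest. Akt2 in liver ran the other way, with r = -0.51 (permutation p = 0.0169, adjusted p = 0.0277) and rho = -0.38 (permutation p = 0.0363, adjusted p = 0.0544), and r = -0.38 without the 2 farthest. A p of 1e-05 is the smallest these permutations can give. The longest transcripts of these genes have 8917 bases for Pik3ca and 10542 for Pdpk1, against 2690 for Akt1 and 3525 for Akt2, whose relations with the balance in islets had r = 0.15 (permutation p = 0.393, adjusted p = 0.442; rho = 0.10, permutation p = 0.545, adjusted p = 0.613; r = 0.17 without the 2 farthest) and r = -0.09 (permutation p = 0.647, adjusted p = 0.685; rho = -0.00, permutation p = 0.994, adjusted p = 0.994; r = -0.09 without the 2 farthest). Long transcripts here have at least 5745 bases in islets and 5455 in liver, and short ones at most 2238 and 2092.

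With the balance as a covariate, the average diet effect in islets was 0.13 for Pik3ca (adjusted p = 0.00144), in place of -0.01, and 0.03 for Pik3r1, 0.05 for Foxo1 and 0.07 for Pdpk1, each of them negative without it. Akt1 kept its islet call under this covariate. In liver, Pik3r1 was at 0.30 (adjusted p = 6.7e-05) and Pik3ca 0.12 (adjusted p = 0.00571). The balance differs between diets in islets, so its part and the diet's cannot be told apart there.

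**Figure D4:**
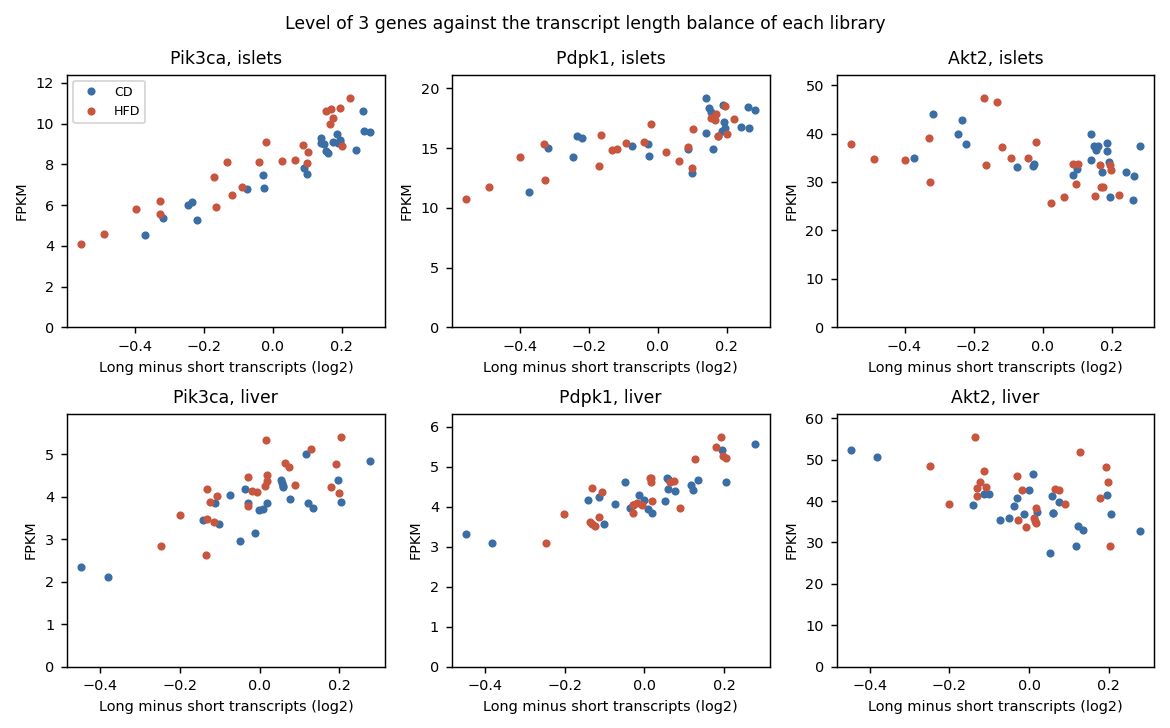
FPKM of Pik3ca, Pdpk1 and Akt2 (y axis, linear and from 0) in each library against the balance of long minus short transcripts (log2, x axis), islets above and liver below, with CD in blue and HFD in red. Pik3ca and Pdpk1 increase along the axis in both tissues, and Akt2 decreases along it in liver (r = -0.51, rho = -0.38); in liver, CD103 and CD104 are the leftmost points, at -0.38 and -0.45.

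Whether the members move together from mouse to mouse was tested pair by pair. Over all 72 pairs of members and tissues, tested on levels with group means subtracted, 22 of 36 pairs passed in islets, all positive, with a median r of 0.45. In liver 15 of 36 passed, 12 positive and 3 negative, with a median r of 0.11. These counts are by r, and by both r and rho 19 pairs passed in islets and 10 in liver. Without the 2 farthest libraries, the negative pairs in liver had r = -0.40 for Insr with Akt2 (-0.51 with all), -0.33 for Irs1 with Akt1 (-0.51) and -0.33 for Irs1 with Akt2 (-0.48). Over all pairs of expressed genes the median r was 0.18 in islets and 0.10 in liver, and 21.7% and 18.3% of them had an r as far from 0 as the weakest member pair that passed. With the length balance held fixed, the median r of the member pairs was 0.34 in islets and 0.13 in liver. The tissues were not tested against each other. The highest pair in islets was Pik3ca with Pdpk1 (r = 0.85, rho = 0.84, each with the smallest possible permutation p of 1e-05; adjusted p = 0.00018 for r and 0.00024 for rho; r = 0.83 without the 2 farthest libraries), both of which follow the length balance. With the balance held fixed that r was 0.58. Akt1 and Akt2, which do not follow the balance in islets, had r = 0.69 there (permutation p = 1e-05, adjusted p = 0.00018) and rho = 0.70 (permutation p = 3e-05, adjusted p = 0.00024), with r = 0.67 without the 2 farthest and 0.72 with the balance held fixed.

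Since each mouse gave both tissues, the pairing was checked by asking whether a mouse with a high level in islets has a high level in liver. Of 9936 genes, 1.04% passed, and 0 of 9 members did. Irs2 came closest, with r = 0.60 (permutation p = 6e-04, adjusted p = 0.0528) and rho = 0.44 (permutation p = 0.00743, adjusted p = 0.195) over 48 mice, and r = 0.50 without the 2 farthest mice, HFD118 and HFD212. By diet, Irs2 had r = 0.71 in the 24 HFD mice (permutation p = 0.00255; rho = 0.58, permutation p = 0.0111) and r = 0.42 in the 24 CD mice (permutation p = 0.112; rho = 0.29, permutation p = 0.231). Akt1, with r = 0.27 over all mice (permutation p = 0.0895, adjusted p = 0.523; rho = 0.28, permutation p = 0.0982, adjusted p = 0.533; r = 0.25 without the 2 farthest), had r = 0.71 in HFD mice (permutation p = 5.6e-04; rho = 0.71, permutation p = 0.00104) and r = -0.06 in CD mice (permutation p = 0.817; rho = -0.23, permutation p = 0.365). Foxo1 ran the other way, with r = 0.41 in CD mice (permutation p = 0.00564, rho = 0.49). In HFD mice its r was 0.13. Irs1 had r = 0.37 in CD mice (permutation p = 0.0341, rho = 0.42) and 0.23 in HFD mice. Pik3r1 had r = -0.40 in CD mice (permutation p = 0.0194; rho = -0.39, permutation p = 0.0593) and 0.35 in HFD mice. Insr, Pik3ca, Pdpk1 and Akt2 had a permutation p above 0.05 in each diet. These p by diet are not adjusted, and the diets were not tested against each other. Mouse HFD118 at week 4 had the highest Irs2 of its group in islets, 14.0 FPKM against 4.99 to 6.29 in the others, and in liver, 4.83 FPKM against 1.32 to 2.25. HFD411 at week 16 had the highest of its group in both too, 8.78 FPKM in islets and 3.46 FPKM in liver. So did HFD212 at week 8, with 16.2 and 3.34 FPKM, and CD203 at week 8, with 10.0 and 5.27 FPKM. These 4 mice were chosen after their values were seen.

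The genes most like 4 of the members were found among all genes with a mean of at least 5 FPKM, 8060 in islets and 6247 in liver, by Pearson r over 48 libraries after group means were subtracted. For Insr they were Rmnd5a (0.85), the gene listed as 6-Mar (0.84) and Ccny (0.84) in islets, and Tnrc6a (0.90), Ncl (0.90) and Slmap (0.89) in liver. For Irs1 they were Prdm2 (0.79), Mtss1 (0.77) and Igf1r (0.74) in islets, and Zfp207 (0.78), Nktr (0.78) and Evi5 (0.77) in liver. For Irs2 they were Thbs1 (0.74), Ptcd1 (0.70) and Msl3l2 (0.65) in islets, and Txnip (0.76), Igfbp1 (0.71) and Pdk4 (0.69) in liver. For Foxo1 they were Ank (0.86), Soga1 (0.83) and Nfatc2 (0.82) in islets, and Pfkm (0.70), Il6ra (0.70) and Klf13 (0.70) in liver. These are descriptions, picked as the highest of many.

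The liver neighbours of Irs2 all stand in the list of genes taken here as FOXO1 targets. Whether FOXO1 controls each of them in liver or in islets was not tested. After that was seen, Irs2 and Foxo1 were each tested against the whole list in each tissue, 38 relations in all. In liver, Irs2 passed with 3 of 11 genes of the list, which are the 3 neighbours that prompted the test and were picked as the highest of 6247 genes, and with 0 of the other 8, so this count adds nothing to that choice. Foxo1 passed with 1 of 11. The median r of the list with Foxo1 in liver was 0.05, against 0.03 over all genes expressed there. With Irs2 it was 0.29, the 3 picked neighbours included, against 0.004 over all genes. Irs2 against Txnip had r = 0.76 and rho = 0.74, and r = 0.68 without the 2 farthest libraries. Irs2 against Igfbp1 had r = 0.71 and rho = 0.66, and r = 0.63 without the 2 farthest. Irs2 against Pdk4 had r = 0.69 and rho = 0.69, and r = 0.64 without the 2 farthest. No p is given for these 3, since they were picked by their r in the same libraries. The one relation of Foxo1 was with Pck1, with r = 0.35 (permutation p = 0.00608, adjusted p = 0.021), rho = 0.39 (permutation p = 0.00802, adjusted p = 0.0305) and r = 0.29 without the 2 farthest. In islets, Irs2 passed with 4 of 8 genes and Foxo1 with 5 of 8, with medians of 0.35 and 0.53 over the list, against 0.13 and 0.32 over all genes. Of all genes, 7.19% in islets had an r with Irs2 as high as the lowest of those 4, 17.9% one with Foxo1 as high as the lowest of those 5, and in liver 13.7% one with Foxo1 as high as that of Pck1. Irs2 and Foxo1 were not tested against each other in this respect. FOXO1 is controlled at the protein level, which RNA does not show.

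The other genes of the pathway were grouped in 7 lists, and their average diet effects are given as counts. In islets, where 38.6% of all genes were called and the median was -0.01, the called genes were 3 of 8 receptors and adaptors, all lower (median -0.08), 2 of 10 PI3K and kinase genes, both lower (-0.07), 7 of 17 genes downstream of AKT, 4 higher and 3 lower (-0.01), 2 of 9 of the RAS and MAPK branch, 1 each way (0.00), 6 of 18 negative regulators, 2 higher and 4 lower (0.00), 3 of 8 FOXO1 targets, 1 higher and 2 lower (-0.04), and 2 of 9 insulin-induced genes, 1 each way (-0.01). In liver, where 42.6% were called and the median was 0.08, they were 4 of 7 receptors and adaptors, all higher (0.09), 4 of 8 PI3K and kinase genes, all higher (0.11), 6 of 15 genes downstream of AKT, 5 higher and 1 lower (0.09), 4 of 9 of the RAS and MAPK branch, all higher (0.11), 4 of 16 negative regulators, all higher (0.06), 5 of 11 FOXO1 targets, 3 higher and 2 lower (0.11), and 2 of 8 insulin-induced genes, both higher (0.16). The counts of single lists are small, and none was tested against the share of all genes.

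The genes of each list with the smallest p are named with their values. In islets, the strongest was Grb10, an adaptor that binds the receptor and restrains it, at -0.71 (adjusted p = 2.3e-14), called at weeks 12 (-0.90), 16 (-1.12), 20 (-0.87) and 24 (-0.91). Pdk4, a FOXO1 target that limits the entry of glucose carbon into oxidation, fell by 1.15 on the log2 scale (adjusted p = 4.3e-12), and Gab1, a docking adaptor, fell by 0.41 (adjusted p = 3.7e-10). Rictor, a subunit of the mTOR complex that phosphorylates AKT, was at -0.29 (adjusted p = 3e-06), Tbc1d4, an AKT substrate in glucose transport, at 0.22 (adjusted p = 2.2e-05), and Pnpla3, an insulin-induced lipid gene, at 0.24 (adjusted p = 3.7e-07). These 6 kept their direction and call in islets with median ratio scaling, with insulin left out and with the length balance as a covariate, and in the 48 fits without 1 library; the weekly call of Grb10 at week 20 was lost with the length balance (-0.70, adjusted p = 0.0966).

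The other genes named in islets were Igf1r (-0.14), Mtor (-0.13), Akt1s1 (0.12), Foxo4 (0.13), Rheb (0.09), Braf (-0.14), Phlpp2 (-0.21), Prkce (-0.17), Grb14 (0.13), Sesn3 (-0.32), Txnip (0.99) and Scd1 (-0.46), all at an adjusted p under 0.05. With the length balance as a covariate, the calls of Igf1r (0.00), Mtor (-0.01), Braf (0.03), Phlpp2 (-0.07), Prkce (-0.07), Sesn3 (-0.08) and Txnip (0.85) were lost. Igf1r (-0.07), Mtor (-0.05) and Braf (-0.06) were not called with insulin left out, and Igf1r was not called without HFD112 or HFD517 (-0.13 each) or without week 12 (-0.13).

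In liver, Tbc1d1 was at 0.37 (adjusted p = 2e-07), Map2k1, the kinase above ERK, at 0.24 (adjusted p = 1.1e-06), Mtor at 0.35 (adjusted p = 3.3e-05), and Ppp2ca, a phosphatase subunit that acts on AKT, at 0.18 (adjusted p = 1.3e-04). Pck1, which FOXO1 induces for glucose production, fell by 0.72 (adjusted p = 1.8e-05), while Pdk4, a target of the same factor, rose by 1.43 (adjusted p = 0.0045). All of these kept their direction in liver with median ratio scaling. Pdk4 had opposite diet effects in the tissues, and the difference of 2.58 passed (adjusted p = 1.3e-06) and kept its call in the 96 fits that left out 1 library.

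The other genes named in liver were Igf2r (0.17), Shc1 (0.14), Grb2 (0.09), Pik3cd (0.26), Mlst8 (0.17), Pik3cb (0.16), Gsk3b (0.20), Rheb (0.14), Eif4ebp1 (0.16), Mapk3 (0.20), Nras (0.11), Inppl1 (0.20), Prkce (0.14), Ptpn1 (0.17), Txnip (0.90), Ccng2 (0.23) and Srebf1 (0.65), all at an adjusted p under 0.05. With median ratio scaling, the calls of Igf2r (0.10), Shc1 (0.06), Grb2 (0.01), Pik3cb (0.09), Rheb (0.06), Eif4ebp1 (0.07), Mapk3 (0.12), Nras (0.03), Prkce (0.07), Ptpn1 (0.09) and Ccng2 (0.15) were lost. Without week 12, Shc1 (0.12), Ccng2 (0.17) and Srebf1 (0.50) were not called, and without CD103 and CD104, Nras (0.09) and Ccng2 (0.20) were not. Ccng2 was also not called without HFD112, HFD212 or HFD411.

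The letters of the promoters of Irs2 and of Txnip, Igfbp1 and Pdk4, its nearest genes in liver by r, are shown as a description. These neighbours were picked as the highest of many genes, and a link between them and Irs2 through the motifs was not tested. Irs1 is shown beside Irs2 as the other adaptor and Akt1 as the member with a different motif. Promoters are the 250 bases before the gene's start from RefSeq, GRCm38.p6, of which 32851 windows were searched on both strands. Distances are from the RefSeq start, which for Irs1 is that of the deposited table, but for Irs2 lies 499 bases and for Akt1 88 bases upstream of the start given there. Of the 9 members 8 matched, with 14 windows; Insr did not. The motifs were TGTTTAC and TGTTTTG, the letters that forkhead factors such as FOXO1 bind, and CACGTG, the E-box that factors such as SREBP and USF bind. TGTTTAC was in 3.17% of all windows and, among the members, in 1 window of Akt1. TGTTTTG was in 5.56% of all windows and in those of Irs1 and Irs2, and CACGTG was in 6.02% and in the same pair. Both TGTTTTG and CACGTG were in 97 windows, 0.295%, among them Irs1 and Irs2. In Irs2 the CACGTG runs from base 44 to base 39 before the start and TGTTTTG from 37 to 31, with 1 base between them. In Irs1 the CACGTG, from 115 to 110, overlaps a TGTTTTG from 111 to 105 by the letters TG, and another TGTTTTG lies from 32 to 26. In Txnip, GTAAACA, the other strand of TGTTTAC, lies from 121 to 115, in Igfbp1, CAAAACA, the other strand of TGTTTTG, lies from 108 to 102, and in Pdk4 none of the motifs is in this window. The sequences run 5′ to 3′ on the gene's strand, with the motifs in capitals. Irs2 is chr8:11008930-11009179 (minus strand), Irs1 chr1:82291440-82291689 (minus), Akt1 chr12:112674885-112675134 (minus), Txnip chr3:96557707-96557956 (plus), Igfbp1 chr11:7197537-7197786 (plus) and Pdk4 chr6:5496279-5496528 (minus). A match is a run of letters and not a binding site.
Irs2: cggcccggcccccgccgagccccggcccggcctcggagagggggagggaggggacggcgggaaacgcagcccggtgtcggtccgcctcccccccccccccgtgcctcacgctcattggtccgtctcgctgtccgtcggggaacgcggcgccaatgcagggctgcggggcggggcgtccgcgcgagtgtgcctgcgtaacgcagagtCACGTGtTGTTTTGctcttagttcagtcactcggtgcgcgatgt
Irs1: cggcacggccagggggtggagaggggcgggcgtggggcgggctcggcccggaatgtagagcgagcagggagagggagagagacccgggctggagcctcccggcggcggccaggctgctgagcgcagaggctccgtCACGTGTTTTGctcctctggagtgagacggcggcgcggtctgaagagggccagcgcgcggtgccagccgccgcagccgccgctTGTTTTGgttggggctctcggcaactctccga
Akt1: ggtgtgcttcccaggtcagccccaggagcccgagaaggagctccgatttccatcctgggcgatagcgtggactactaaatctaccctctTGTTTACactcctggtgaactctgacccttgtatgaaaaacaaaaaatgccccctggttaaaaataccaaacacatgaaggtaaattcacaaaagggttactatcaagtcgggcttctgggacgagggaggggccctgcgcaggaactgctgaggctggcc
Txnip: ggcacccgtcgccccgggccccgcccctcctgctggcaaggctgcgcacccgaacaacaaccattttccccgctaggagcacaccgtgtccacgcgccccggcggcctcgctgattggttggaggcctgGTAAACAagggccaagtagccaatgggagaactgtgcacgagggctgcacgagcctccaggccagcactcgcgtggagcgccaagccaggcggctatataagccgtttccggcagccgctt
Igfbp1: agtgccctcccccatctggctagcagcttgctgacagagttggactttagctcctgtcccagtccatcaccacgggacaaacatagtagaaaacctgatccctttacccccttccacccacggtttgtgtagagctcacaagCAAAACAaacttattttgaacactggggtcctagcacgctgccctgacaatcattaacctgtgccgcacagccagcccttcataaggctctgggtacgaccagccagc
Pdk4: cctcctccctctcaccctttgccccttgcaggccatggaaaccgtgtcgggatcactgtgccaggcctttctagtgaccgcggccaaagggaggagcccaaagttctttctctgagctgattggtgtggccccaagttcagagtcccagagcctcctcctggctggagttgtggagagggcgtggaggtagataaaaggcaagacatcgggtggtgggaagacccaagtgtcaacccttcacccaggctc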

How the data were processed

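Poly(A) RNA of islets and liver was sequenced on a BGISEQ-500. The authors deposited FPKM per library with 2 decimals, and name HISAT2 2.0.4, Bowtie2 2.2.5, RSEM 1.1.12 and GRCm38.p5 in their processing notes. The deposited table also holds the authors' own fold changes, p and q values per week, which were not used. The 9 members and all lists were chosen with earlier results of these data known. Libraries were grouped by the tissue, diet, week and mouse in the labels.

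FPKM were transformed to log2(FPKM + 1) and tested by limma 3.58.1 in R 4.3.3, its trend and robust options on. Genes needed at least 1 FPKM in at least 4 libraries (3 when 1 library of a week was left out). Adjusted p are Benjamini-Hochberg values over all genes tested, and a gene was called at an adjusted p under 0.05. Weekly tests used the 8 libraries of a tissue and week. The change with weeks in CD mice was fitted as a straight line through the CD libraries of a tissue. The other contrasts used fits of group means over the libraries they compare. Correlations were tested by 100000 permutations of mice within diet and week, two-sided, with numba 0.67.0. Other tools were numpy 2.4.6, pandas 2.3.3 and, for figures, matplotlib 3.10.9, under Python 3.11.15. The tests were tried on simulated data. With no counts or depth in the table, no counting error can be given.

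Genes were named by a rule: the 9 members; in each other list and tissue the called genes of the average diet effect, at most the 4 with the smallest p, and for each week the called genes where there were 3 or fewer; and for Insr, Irs1, Irs2 and Foxo1 the 3 genes with the highest r among genes at 5 FPKM or more. The text gives the average effects of these genes and, of the weekly ones, Grb10; a few genes that the rule selects are not reported here. The lists were receptors and adaptors (10 genes), PI3K and kinases (11), downstream of AKT (17), RAS and MAPK branch (9), negative regulators (20), FOXO1 targets (12), insulin-induced genes (9), and cell markers for beta, alpha, delta, pancreatic polypeptide, acinar, ductal, endothelial, stromal, macrophage, T, B, hepatocyte and adipocyte cells. Alternatives were a pseudocount of 0.1, no filter or one at 5 FPKM, median ratio scaling, insulin genes left out of the islet total, limma without trend and robust variances, all groups in one fit, a log2 fold change of at least 1, the mouse as a replicate block, each library left out in turn, and 3 chosen after seeing the data: leaving out the livers of CD103 and CD104, leaving out week 12, and the length balance as a covariate.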

Additional observations from a re-analysis of the deposited data

Results flagged for a closer look

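In 216 groups of 4 libraries, 12 held a member's value far from the other 3 by Dixon's test. Chance flags about 1 in 20 groups, which is 10.8 here, so the number is near chance. In islets, Akt1 of CD304 (CD, week 12) was 53.4 FPKM against 68.6 to 71.7 in the others, Akt2 of CD101 (CD, week 4) was 39.9 against 33.2 to 33.6, and Foxo1 of HFD211 (HFD, week 8) was 14.8 against 12.5 to 12.8. Irs1 of HFD411 (HFD, week 16) was 2.52 FPKM against 1.64 to 1.79, and Irs2 of the same library was 8.78 against 4.86 to 5. Irs2 of HFD118 (HFD, week 4) was 14.0 FPKM against 4.99 to 6.29, and Pdpk1 of HFD418 (HFD, week 16) was 14.7 against 17.4 to 17.8. In liver, HFD617 (HFD, week 24) was low in both Insr, 7.88 FPKM against 12.6 to 13.1, and Pik3r1, 5.7 against 11.4 to 12.3, and its length balance was -0.14. CD507 (CD, week 20) was low in Irs1, 1.58 FPKM against 2.66 to 2.88, and high in Pdpk1, 4.7 against 3.95 to 4.04. Foxo1 of HFD118 (HFD, week 4) was 11.7 FPKM in liver against 8.69 to 9.18. Without the islet library of CD304, Akt1 at week 12 had a diet effect of -0.23 in place of -0.14 and did not pass.

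Diet effects that differed between the tissues, by the test of the difference itself, were those of Pik3r1 (0.36 larger in liver) and Akt2 (0.17), and, among genes of the other lists called in both tissues with opposite signs, Mtor (0.48), Prkce (0.31) and Pdk4 (2.58).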

How the results depend on the processing

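With 2 decimals and no counts, depth cannot limit or support single values here. Of 1495 values of members under alternatives other than a left-out library, 38 changed their call, 4 turned their sign where called in either fit and 90 turned it where not called. With 1 library left out, a milder change, 48 of 4320 changed their call and 205 turned their sign, none of those called. For other genes it was 149 of 1007 and 175 of 5776 that changed their call. Members called over the 6 weeks of islets, 1 as reported, were 0 with no filter on low values or with a fold change of at least 1 required, and 2 with insulin left out, with all 12 groups in one fit, or with the length balance as a covariate. In the average diet effect in islets, 1 became 2 with median ratio scaling or insulin left out and 3 with the length balance. Early minus late in islets went from 0 to 1 with the length balance. For the change with weeks in CD mice, 0 became 2 in islets with median ratio scaling or without week 12 and 1 without trend and robust variances, and 0 became 1 in liver with a pseudocount of 0.1, a filter at 5 FPKM or median ratio scaling. In liver, the 6 weeks went from 0 to 1 with median ratio scaling, and the average from 3 to 1 without week 12. The tissue difference in diet effect went from 2 to 1 with median ratio scaling or insulin left out, and stayed at 2 with the mouse as a replicate block, where Pik3r1 gave 0.36 (adjusted p = 6.6e-04). Leaving out 1 library at a time gave 0 to 2 in the weeks of islets, 1 to 2 in their average, 0 to 1 early minus late, 0 to 0 among weeks and 0 to 2 with weeks in CD mice. In liver it gave 0 to 1, 2 to 4, 0 to 0, 0 to 0 and 0 to 1. Between tissues it gave 2 to 3 for the diet effect and 9 to 9 for the levels, where the 9 became 7 with insulin left out (Insr and Irs1 lost), 8 with the length balance (Pik3r1 lost) and 8 with a filter at 5 FPKM, where Irs1 was not tested. Where called in either fit, signs turned for liver minus islets of Akt2 (-0.32) and Irs1 (-0.0359) with insulin left out and of Pik3r1 (0.27) with median ratio scaling, and for the islet average of Pik3ca (0.13), Igf1r (0.00258) and Braf (0.0294) with the length balance, and among averages not called, those of Pik3r1 (0.03), Pdpk1 (0.07) and Foxo1 (0.05) in islets turned with the length balance, and those of Pik3ca (0.07), Pik3r1 (0.01), Pdpk1 (0.01), Akt2 (0.02) and Foxo1 (0.02) with insulin left out; the scalings differ by construction in the total they divide by, and otherwise the cause was not tested. Counts over all genes differed by more than 1.5 times in 15 of 22 comparisons with a filter at 5 FPKM, where fewer genes were tested, 13 of 22 with the length balance, 8 of 12 in one fit, 5 of 12 with insulin left out, 5 of 22 with median ratio scaling and 5 of 22 with no filter; liver at week 4 went from 5 to 361 called genes without CD103 and CD104. The length balance, week 12, and CD103 with CD104 were alternatives chosen after seeing the data.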
